A study of Rattus norvegicus with 6 samples.

Results

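The nuclei described here were the surface-like mature enterocyte nuclei of rat colon, chosen by 2 sums of UMIs (unique molecular identifiers, each standing for 1 captured RNA molecule). A nucleus was taken as surface-like when the genes Slc26a3, Krt20, Clca4, Aqp8, Slc9a3 and Cdhr5 together held at least 3 UMIs and the crypt genes Lgr5, Smoc2, Axin2, Ephb2, Ephb3, Sox9, Lrig1, Cd44 and Cftr held 0. Of 8782 enterocyte nuclei, 4983 (56.7%) met this rule. The counts came from single nuclei RNA sequencing (snRNA-seq) of flash-frozen colon from 9 wildtype male Wistar rats, 3 per treatment. Sham rats drank water only. Placebo and PL8177 rats all drank 5% dextran sulfate sodium (DSS), a detergent-like polymer that damages the colon epithelium, for 3 days, and then had capsules by mouth 2 times a day for 4 days. Placebo capsules held no drug, and PL8177 capsules held 50 µg of PL8177, a peptide agonist of the melanocortin-1 receptor. The study describes sham as neither challenged nor treated, so sham against placebo differs in DSS and in capsule dosing. No rat had PL8177 without DSS, so PL8177 against sham differs in these and in the drug.

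The epithelium of the colon renews itself from stem cells at the base of the crypts. Their daughters divide, move up the crypt wall, leave the cell cycle and reach the surface between the crypt mouths as absorptive colonocytes, from which they are shed. Surface colonocytes take up sodium, chloride, water and short-chain fatty acids, carry a brush border with a mucin coat, and seal the wall with tight junctions, whereas secretion of chloride and bicarbonate is known mainly from the crypts. DSS colitis is known for loss of surface cells and lengthened or regenerating crypts.

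The rule used measured values, so the levels of its own genes are a description and carry no test. Slc26a3, the chloride and bicarbonate exchanger that absorbs chloride, gave 55.6% of the UMIs in the surface sum of the chosen nuclei. Clca4 gave 11.2%, Krt20, a keratin of differentiated cells, 10.2%, Slc9a3, the sodium and proton exchanger NHE3, 10.0%, Aqp8, a water channel, 8.41% and Cdhr5, a protocadherin of the brush border, 4.50%. In the other nuclei, Cftr, the chloride channel of secretion, held 43.9% of the crypt sum and Ephb2 29.4%, while Lgr5, the stem cell marker, held 0.631%. The crypt sum was therefore mostly a count of Cftr and Ephb2. Just inside the threshold were 289 nuclei with a surface sum of 3, and just outside it 375 with a surface sum of 2 and no crypt UMI. A further 1165 nuclei met the surface condition but held exactly 1 crypt UMI. Most members lay far from the threshold of the surface sum, 3870 of them (77.7%) with a surface sum of at least 8. On the crypt side no member had such a margin, because 1 crypt UMI was enough to exclude a nucleus.

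The promoters of the 3 surface genes below are shown because Slc26a3 carried most of the sum, and because Krt20 and Aqp8 were the surface genes whose promoter held a searched motif. All are from RefSeq on build GRCr8, run from 250 bases before to 50 bases after the annotated start of the gene, and are written 5′ to 3′ on the strand of the gene, with motif matches in capitals. The counts themselves were made on Rnor 6.0, so these positions are not those of the count tables. They lie at chr6:53751165-53751464 (plus strand) for Slc26a3, chr10:84890236-84890535 (minus strand) for Krt20 and chr1:187424193-187424492 (plus strand) for Aqp8.
Slc26a3: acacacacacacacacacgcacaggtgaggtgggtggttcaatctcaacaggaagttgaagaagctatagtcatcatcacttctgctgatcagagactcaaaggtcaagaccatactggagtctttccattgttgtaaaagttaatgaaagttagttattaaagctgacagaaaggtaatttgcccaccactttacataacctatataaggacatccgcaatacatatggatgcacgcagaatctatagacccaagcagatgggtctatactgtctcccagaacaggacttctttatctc
Krt20: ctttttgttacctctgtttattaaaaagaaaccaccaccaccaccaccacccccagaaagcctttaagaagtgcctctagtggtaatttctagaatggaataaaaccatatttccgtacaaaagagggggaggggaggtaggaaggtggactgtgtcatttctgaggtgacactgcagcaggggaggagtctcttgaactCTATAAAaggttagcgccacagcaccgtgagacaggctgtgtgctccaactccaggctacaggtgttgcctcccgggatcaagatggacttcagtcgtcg
Aqp8: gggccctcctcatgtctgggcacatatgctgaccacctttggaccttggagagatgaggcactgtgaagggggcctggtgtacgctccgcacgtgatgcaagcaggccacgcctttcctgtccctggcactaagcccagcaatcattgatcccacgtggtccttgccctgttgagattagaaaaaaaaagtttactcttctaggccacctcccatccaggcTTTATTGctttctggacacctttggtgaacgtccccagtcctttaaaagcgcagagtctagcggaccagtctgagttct
The motifs searched on both strands were TTTATNG, the core bound by CDX factors such as the intestinal regulator Cdx2, and CAAAGTCC, a core bound by HNF4 factors. TTTATNG occurred in 2 of the 6 surface genes' promoters, with its first base on the printed strand at −50 in Krt20 (reverse strand) and −29 in Aqp8 counted from the start of the gene, and in 11.3% of 33469 rat promoters of the same length. CAAAGTCC occurred in 0 of the 6 and in 1.40% of all promoters. These matches are descriptions of letters and not measured sites.

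Genes that the rule did not use were looked at next, as a description. Of 17 held-out mature colonocyte genes found in the tables, such as the carbonic anhydrase Car4, the mucus-side protein Lypd8 and the guanylin gene Guca2a, the summed level was 113 to 208 UMIs per 10000 UMIs in members and 46.8 to 118 in the other nuclei, and was higher in members in 9 of 9 rats. The purine list, with genes of nucleotide synthesis and salvage, lay lower in members in 9 of 9 rats, at 6.39 to 9.48 against 11.1 to 17.2. Over its 8 fitted genes, however, the median log2 fold change was only −0.08, with 3 above 0 and 5 below. The summed level thus does not stand for each gene of the list. Markers of other cell types were low. The 13 T cell markers summed to 0.0978 to 0.417 UMIs per 10000 in members and 0.384 to 1.22 in other nuclei, the 9 enteroendocrine markers to 0.0390 to 0.285 in members, the 7 tuft cell markers to 0.164 to 0.552, the 7 B and plasma cell markers to 0 to 0.196, the 6 endothelial markers to 0.0156 to 0.346 and the 7 fibroblast markers to 0.289 to 0.771. The 11 goblet markers reached 1.73 to 5.01 and the 8 smooth muscle markers 3.49 to 8.71 per 10000 in members. Most of the smooth muscle UMIs in members came from Mylk (3635), ahead of Myh11 (802). The 8 myeloid markers were higher in members than in other nuclei in 9 of 9 rats, at 0.398 to 1.94 against 0.208 to 1.45, and the UMIs came mainly from Mrc1, with 841 in members and 325 in other nuclei. Their part in the results was not tested.

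Depth differed with the class. Members held a median of 1252 UMIs and 830 genes, and the other nuclei 885 UMIs and 682 genes. The others were of 3 kinds, namely 1807 mixed nuclei that met the surface condition but held a crypt UMI (median 2192 UMIs), 818 nuclei with a crypt UMI and a surface sum under 3 (682.5 UMIs) and 1174 nuclei with neither (413.5 UMIs). In every rat the median depth of members exceeded that of other nuclei, from 458 against 332 UMIs in sham rat GR13 to 2741 against 1550.5 in placebo rat GR22. Rats differed more widely, and the sham rats GR13 and GR15 and PL8177 rat GR44 had the shallowest members, at 458, 589 and 860.5 UMIs. The median depth of members by rat was 1139 ± 1068 UMIs (SD, n = 3) in sham, 1799 ± 823 in placebo and 1750 ± 855 under PL8177, with exact permutation p values of 0.5, 1.0 and 0.5 for sham against placebo, PL8177 against placebo and PL8177 against sham. Scrublet called 70 nuclei as doublets (0.797%), 50 of them members, and 8 barcodes occurred in more than 1 rat.

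The share of surface-like nuclei among enterocyte nuclei was lowest after DSS with placebo. It was 68.1% ± 13.1 (SD, n = 3) in sham, 41.8% ± 7.83 in placebo and 62.0% ± 12.2 under PL8177. By rat, with exact Clopper-Pearson 95% intervals for counting error, sham rats had 54.8% (51.5 to 58.0), 81.0% (78.2 to 83.6) and 68.5% (64.9 to 71.9). Placebo rats had 43.4% (40.8 to 46.1), 33.2% (28.0 to 38.8) and 48.6% (45.9 to 51.4). PL8177 rats had 60.3% (57.3 to 63.4), 50.7% (48.1 to 53.2) and 74.9% (71.7 to 77.8). Every sham rat and every PL8177 rat lay above every placebo rat, and the sham and PL8177 rats overlapped. Sham exceeded placebo by 26.3 percentage points and PL8177 exceeded it by 20.2, each with an exact two-sided permutation p of 0.1, the smallest that 3 against 3 rats allow (0.15 after Benjamini-Hochberg adjustment over the 3 comparisons). PL8177 and sham differed by −6.14 points (p = 0.6, exact permutation). Both differences share the same 3 placebo rats. Krt20, Clca4 and Aqp8 of the surface sum are also on the study's list of enterocyte genes higher in sham and PL8177 than in placebo. The rule thus held genes already known to go this way in these nuclei, and the p values are no independent evidence of the direction. Without these 3 genes in the surface sum, the differences were 19.1 and 17.8 points, and every placebo rat again lay below all others.

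At the depth as deposited, neither condition of the rule alone separated the placebo rats from the others. A surface sum of at least 3 was met by 87.8%, 88.6% and 77.4% of sham nuclei, by 79.1%, 45.1% and 62.4% of placebo nuclei and by 76.9%, 79.8% and 82.9% of PL8177 nuclei, in the order of the rats above. A crypt sum of 0 was met by 58.3%, 90.3% and 87.7% of sham, 52.1%, 64.8% and 69.0% of placebo and 77.5%, 61.5% and 88.2% of PL8177 nuclei. A crypt sum of 0 is easier to reach at low depth and a surface sum of 3 is harder, so the shares were also taken after thinning. Per 10000 UMIs of all enterocyte nuclei, the crypt genes held 2.16 ± 0.209 (SD, n = 3) in sham, 4.28 ± 1.18 in placebo and 2.07 ± 0.635 under PL8177. Each placebo rat was above every sham and every PL8177 rat in this sum, and the separation lay in Cftr, at 0.581, 0.379 and 0.404 in sham rats, 2.14, 3.32 and 2.02 in placebo rats and 0.554, 1.01 and 0.546 under PL8177. Without Cftr the crypt genes held 1.71, 1.54 and 1.86 in sham rats, 1.41, 2.32 and 1.63 in placebo rats and 1.25, 1.78 and 1.07 under PL8177, and the treatments overlapped. When Cftr was left out of the rule, in an alternative added after the data were seen, the shares were 59.0%, 82.5% and 69.5% in sham rats, 58.1%, 36.8% and 53.1% in placebo rats and 63.9%, 56.9% and 77.0% under PL8177. PL8177 and placebo then overlapped (exact permutation p = 0.2), and sham stayed above placebo by 21.0 points, with the lowest sham rat 58.99% and the highest placebo rat 58.05% (p = 0.1, exact permutation). The surface genes, at 185 ± 74.8 UMIs per 10000 in sham rats, 126 ± 29.1 in placebo rats and 175 ± 14.0 under PL8177 (SD, n = 3), overlapped between sham and placebo, and were above every placebo rat in each PL8177 rat.

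When each nucleus was thinned to 300 UMIs, the shares were 52.8%, 85.7% and 65.0% in sham rats, 43.9%, 30.7% and 36.4% in placebo and 50.4%, 52.3% and 72.8% under PL8177, and the placebo rats again lay below all others. At this depth the surface condition alone, an alternative added after the data were seen, also placed them below all others. It was met by 55.0%, 89.7% and 68.3% of sham, 46.7%, 31.9% and 37.9% of placebo and 52.3%, 54.9% and 74.9% of PL8177 nuclei. Thinned to 1000 UMIs, which left only 66 and 110 nuclei of sham rats GR13 and GR15, the shares were 72.2%, 92.4% and 80.9% in sham rats, 64.1%, 59.6% and 75.9% in placebo and 84.2%, 76.7% and 91.1% under PL8177, where sham and placebo overlapped (exact permutation p = 0.2). Among nuclei of 1000 to 3000 UMIs, an alternative added after the data were seen, PL8177 and placebo overlapped as well, with 75.5%, 57.4% and 88.0% against 41.2%, 58.5% and 68.8%. Among nuclei with at least 500 genes, placebo overlapped with both sham and PL8177 (exact permutation p = 0.2 for each).

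**Figure D1:**
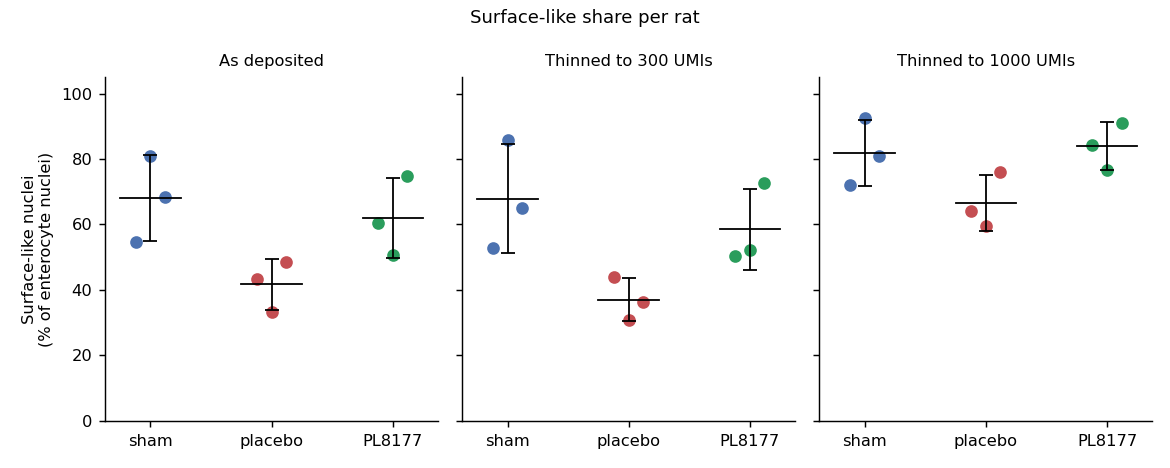
Surface-like nuclei as a percentage of enterocyte nuclei in each rat (points), with the mean and SD of 3 rats (lines), by treatment, for nuclei as deposited and thinned to 300 and to 1000 UMIs. Placebo rats sit lowest as deposited (33.2% to 48.6%) and after thinning to 300 UMIs, and overlap with sham rats at 1000 UMIs.

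To describe what else set the surface-like nuclei apart, UMIs were summed per rat over members and over other nuclei, and edgeR was fitted with the rat as a block. Since the members were chosen by expression in these nuclei, the outcome is a description without p values. A gene counts as called when its adjusted p is below 0.05 and its log2 fold change lies beyond 0.5 in size. Of 6394 genes, 1997 (31.2%) were called, 970 higher (15.2%) and 1027 lower (16.1%) in members, and nothing is read from these shares. Outside the 10 genes of the rule that could be fitted, 964 were called higher and 1023 lower, of which 444 and 598 had the same direction in 9 of 9 rats (over all fitted genes, 7.52% were higher and 17.1% lower in all 9). Within nuclei of 1000 to 3000 UMIs, 1315 of these called genes could be fitted, 0 of them had the opposite direction and 1076 were called. Against the mixed nuclei alone, which also met the surface condition but were deeper and had a lower surface level in 9 of 9 rats, 831 of the called genes were called in the same direction, in a fit added after the data were seen.

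Leading genes higher in members, ordered by log2 fold change (± SE) among called genes with at least 200 UMIs and the same direction in every rat, were Itgb3, the beta chain of a vitronectin-binding integrin, at 1.84 ± 0.19, Tmem140 at 1.74 ± 0.16, Casp12, an inflammatory caspase, at 1.70 ± 0.23, and Sectm1b at 1.53 ± 0.12. Next came Duox2 at 1.46 ± 0.10, the oxidase that makes hydrogen peroxide at the mucosal surface, the protease inhibitor gene Serpina3n at 1.44 ± 0.16, the insulin receptor substrate Irs1 at 1.43 ± 0.18 and the kinase Sgk1, which keeps sodium channels at the membrane, at 1.42 ± 0.09. Nedd9, Btnl5, Ppm1j and Clec2e followed at 1.39 to 1.42, and 3 genes known only by a clone number (AABR07062154.2, AABR07035486.1 and AABR07031193.1) stood among the leading 15, at 1.68, 1.47 and 1.42.

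Leading genes lower in members were Slc4a4, the sodium bicarbonate importer that feeds secretion, at −2.75 ± 0.12 and Kcnn4, a calcium-activated potassium channel that drives chloride secretion, at −2.73 ± 0.21. Slc4a4 lay between 0.163 and 0.650 UMIs per 10000 in the members of the 9 rats and between 1.10 and 9.06 in the other nuclei, without overlap. Further leading genes were Ankrd26 at −2.44, Tln2, which codes for talin 2, at −2.29, Gtsf1 and Trpm3 at −2.20, Hmga2, a chromatin protein of growing cells, at −2.20 and Myb, a transcription factor of crypt progenitors, at −2.14. Utp20 and Wdr43, both parts of ribosome assembly, were at −2.14 and −2.12, Bcl11b at −2.13, the amino acid transporter Slc6a20 at −2.07 and the scaffold Shank2 at −1.97. Bcl11b is also on the T cell marker list, and in members held 89 UMIs against 346 in other nuclei.

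Of 12 fitted mature colonocyte genes outside the rule, 8 were called higher and 0 lower in members, with a median log2 fold change of 0.87 against 0.01 over all genes. Beside this and each list count below stand the 15.2% of all genes called higher and the 16.1% called lower. Ceacam1, an adhesion molecule of the apical membrane, was at 1.32, Car4 at 1.27, Lypd8, which keeps flagellated bacteria off the surface, at 1.10, Guca2a at 1.05, the protocadherin Cdhr2 at 0.93, Plac8 at 0.90 and Emp1 at 0.85. Car4 was at 10.6 to 16.7 UMIs per 10000 in members and 3.04 to 8.66 in other nuclei over the 9 rats, so the ranges did not meet. Of 21 brush border genes, 14 were called higher and 1 lower (Vill, at −0.70), with a median of 0.64. The actin bundlers and anchors Eps8, at 1.02, Pls1, at 0.82, and Myo7b, at 0.62, were among them. The mixed nuclei came close to members in summed brush border level, at 93.6 to 139 UMIs per 10000 against 95.6 to 148. Members were higher in 8 of 9 rats. With a surface sum under 3, nuclei with a crypt UMI were at 49.5 to 77.2 and those without at 48.2 to 70.7. For the held-out colonocyte genes, mixed nuclei were at 80.6 to 130, below members in 9 of 9 rats. Of 9 mucin and glycocalyx genes, 4 were called higher, namely Ceacam1, Lypd8, Muc13, the transmembrane mucin of the apical coat, at 1.13, and the sialyltransferase St3gal4 at 0.96.

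Transport genes went in both directions. Of 30 fitted, 12 were called higher and 7 lower, where 15.2% and 16.1% of all genes were. Higher were genes of absorption, including Sgk1, Car4, the proton and potassium pump Atp12a at 1.25, the calcium channel Trpv6 at 1.22, the water and glycerol channel Aqp3 at 0.98 and Scnn1a, the alpha subunit of the epithelial sodium channel ENaC, at 0.87. Scnn1a was higher in members in each of the 9 rats. Lower, beside Slc4a4 and Kcnn4, were the potassium channel Kcnq1 at −1.19, the sodium, potassium and chloride cotransporter Slc12a2, which loads chloride for secretion, at −1.10, the bicarbonate cotransporter Slc4a7 at −0.85, Kcnma1, and Slc5a8, which takes up short-chain fatty acids, at −1.11. Slc5a8, known for absorption, thus went against the other absorptive genes named.

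Tight and adherens junction genes were mostly higher, 13 of 25 called higher and 2 lower. Claudins differed among themselves. Cldn4 at 1.58, Cldn23 at 1.26, Cldn3 at 1.24 and Cldn7 at 0.82 were higher in members, and Cldn15, which forms a sodium-permeable pore, at −1.53, and Cldn8 at −0.52 were lower. Cldn4 was higher in members in 8 of 9 rats, the exception being 1 sham rat. Occludin (Ocln) was at 0.75 and E-cadherin (Cdh1) at 0.59. The 2 fitted keratins outside the rule were not called.

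**Figure D2:**
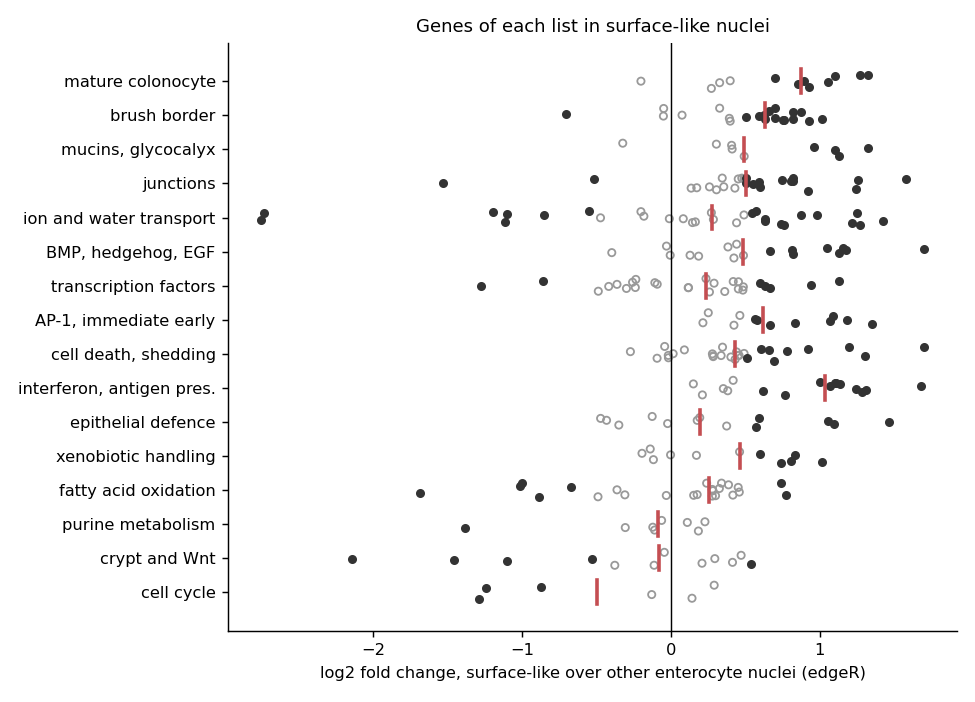
Log2 fold change of surface-like over other enterocyte nuclei for the genes of each list (points, filled where called, rule genes left out) and the list median (red bars). Mature colonocyte, brush border and interferon genes lie mostly to the right of 0, and transport, fatty acid oxidation and crypt genes fall on both sides.

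Genes of fatty acid oxidation and related steps, a pathway colonocytes use to burn butyrate, were split, with 2 of 24 called higher (Acadm at 0.77 and Acadl at 0.74) and 5 lower, which is near the 15.2% and 16.1% of all genes. The nuclear receptor Ppara, which drives this pathway, was at −0.89, Hadh at −1.01, and Acsf2, an acyl-CoA synthetase, at −1.68. Acsf2 ranged from 0.0978 to 0.415 UMIs per 10000 in members and from 0.575 to 1.06 in other nuclei, and did not overlap between the classes. Of 8 purine and nucleotide genes only Adk, adenosine kinase, was called, at −1.38, with 1.17 to 3.37 UMIs per 10000 in members and 4.86 to 9.76 in other nuclei. Adk did not overlap between the classes.

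Of 27 differentiation transcription factors, 5 were called higher and 2 lower, where 15.2% and 16.1% of all genes were, so this count does not set the factors apart. Prdm1 (Blimp-1) was at 1.13, Maf at 0.94 and the vitamin D receptor Vdr at 0.63, while Foxa2 was at −1.28 and Grhl2 at −0.85. Of 17 genes of the BMP, hedgehog and EGF pathways, which signal differentiation and growth along the crypt axis, 8 were called higher and 0 lower. The ligands were Bmp8a at 1.70, Areg, amphiregulin, at 1.17, Bmp3 at 1.16 and Bmp2 at 1.13, and the receptor Egfr was at 0.82. Bmp2 was higher in members in 9 of 9 rats, at 1.51 to 3.97 against 0.145 to 2.84 UMIs per 10000.

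Immediate early, death and interferon genes were on the higher side. Of 12 AP-1 and immediate early genes, which also respond to tissue handling, 8 were called higher and 0 lower, with Dusp1 at 1.35, Atf3 at 1.18 and Jun at 1.09. Of 27 cell death and shedding genes, 9 were called higher and 0 lower, among them Casp12, Ripk3, the kinase of necroptosis, at 1.30 and Birc3, an inhibitor of apoptosis, at 0.92. Of 16 interferon and antigen presentation genes, 11 were called higher and 0 lower, with a median of 1.04. Rsad2 was at 1.68, B2m, the light chain of class I molecules, at 1.13, RT1-A1, a class I heavy chain, at 1.11 and Irf1 at 0.77. The RT1 genes are close copies of each other, so reads may have been split among them. Of 13 defence genes 5 were called higher, with Duox2 and Il1a, at 1.05, among them, and of 11 xenobiotic genes 5, with the efflux pump Abcg2 at 1.01 and the sulfotransferase Sult1b1 at 0.81.

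Crypt genes outside the rule and cell cycle genes were mostly too sparse to fit, with 12 and 6 genes. Of the crypt and Wnt genes, 4 were called lower, with Myb and Ephb4 at −2.14 and −1.46 and Slc12a2 and Cdk6 besides, and Lrp5 was called higher. Of the cell cycle genes, 3 were called lower, namely Ezh2 at −1.29, Pola1 at −1.24 and Atad2 at −0.87. The cell cycle list was at 2.14 to 3.39 UMIs per 10000 in members and 2.62 to 6.87 in other nuclei, lower in members in 9 of 9 rats, but its median fold change turned above 0 against the mixed nuclei, against the crypt-marker nuclei and within 1000 to 3000 UMIs.

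**Figure D3:**
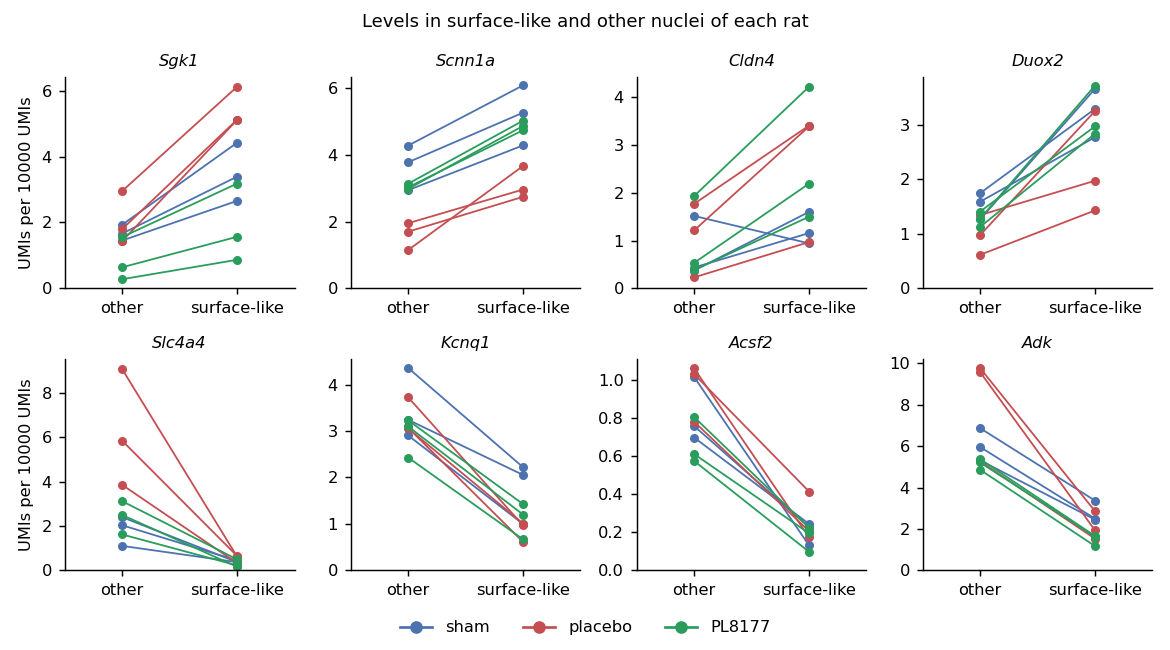
UMIs per 10000 UMIs in other and in surface-like nuclei of each rat (points joined by a line, coloured by treatment) for 8 genes. Sgk1, Scnn1a and Duox2 are higher in surface-like nuclei of every rat and Cldn4 of all but 1, and Slc4a4, Kcnq1, Acsf2 and Adk are lower in every rat.

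Among themselves, members varied in the surface sum as a fraction of all UMIs of the nucleus. In each rat members were split at the median of this fraction, giving 2488 upper and 2495 lower nuclei with median depths of 1524.5 and 1099 UMIs. The split uses the rule's own genes, so only genes outside it are given, and as a description. The held-out mature colonocyte level was higher in the upper nuclei in 9 of 9 rats, by a median of 0.48 on the log2 scale, mucins and glycocalyx by 0.50 in 9 of 9 and brush border genes by 0.34 in 9 of 9. The summed purine level was lower in the upper nuclei in 9 of 9 rats, by −0.59. This sum includes Adk, the only purine gene called between the classes, and the part of Adk in it was not tested. Fatty acid oxidation genes were higher in the upper nuclei in only 1 of 9 rats, and differentiation factors differed by a median of 0.03.

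Within surface-like nuclei, the treatments were then compared, with UMIs summed per rat. The members differ in depth between rats as given above. The summed marker lists of other cell types also differed between treatments within members. The smooth muscle markers summed to 4.51 to 5.79 UMIs per 10000 in sham, 6.15 to 8.71 in placebo and 3.49 to 4.52 in PL8177 rats, with placebo above both, and the T cell markers to 0.228 to 0.417, 0.181 to 0.415 and 0.0978 to 0.141, with PL8177 below both. The smooth muscle sum is mainly Mylk, with 3635 UMIs in members against 97 of Acta2 and 89 of Des, so it mostly follows 1 gene. The part of these markers in the comparisons was not tested. The edgeR quasi-likelihood test called 0 of 7780 genes (0%) in each of the 3 comparisons. Without adjustment, p was below 0.05 for 974 genes in sham against placebo (501 or 6.44% of all genes higher, 473 or 6.08% lower), 580 in PL8177 against placebo (314 or 4.04% higher, 266 or 3.42% lower) and 556 in PL8177 against sham (251 or 3.23% higher, 305 or 3.92% lower). DESeq2 called 41 genes (0.527%; 0.308% higher and 0.219% lower), 11 (0.141%; 0.09% higher and 0.0514% lower) and 3 (0.0386%; 0.0129% higher and 0.0257% lower). Over all genes, every sham rat lay above every placebo rat in 8.19% and below in 9.18%, every PL8177 rat above every placebo rat in 5.87% and below in 7.84%, and every PL8177 rat above every sham rat in 5.77% and below in 6.52%. The fitted value was above 0 in 49%, 49% and 51.6% of genes. The lowest adjusted p by edgeR was 0.186, 0.414 and 0.129. None of the folds below passed the edgeR test after adjustment, so they are given as values.

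The transmembrane mucin gene Muc13 was at 74.4, 107 and 99.2 UMIs per 10000 in members of the sham rats, 31.8, 37.9 and 27.2 in placebo rats and 36.0, 62.5 and 46.7 under PL8177. All sham rats were above all placebo and all PL8177 rats, and PL8177 and placebo overlapped. The log2 fold change for sham against placebo was 1.59 ± 0.31 (SE, edgeR adjusted p = 0.186; DESeq2 adjusted p = 0.000534), and for PL8177 against placebo 0.64 (edgeR unadjusted p = 0.0541). Between sham and placebo the exact permutation p of the level was 0.1, between PL8177 and placebo 0.2, and between PL8177 and sham 0.1.

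Ceacam1 was at 5.31, 3.92 and 2.88 in sham rats, 1.90, 1.66 and 1.43 in placebo and 4.25, 5.12 and 2.36 under PL8177. Every placebo rat lay below every other rat. Its log2 fold changes against placebo were 1.33 for sham and 1.29 for PL8177, which DESeq2 called (adjusted p = 0.0273 and 0.0314) and edgeR did not (adjusted p = 0.196 and 0.414). Ripk4, a kinase of keratinocyte and epithelial differentiation, was at 2.04, 2.53 and 1.83 in sham rats, 1.20, 0.968 and 0.853 in placebo and 2.40, 1.99 and 2.54 under PL8177, with log2 fold changes of 1.13 and 1.24. Ahdc1 behaved alike, at 1.31 and 1.33, and was called by DESeq2 in both comparisons.

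Other genes were higher with PL8177 than with placebo. Kcnk5, a potassium channel of the basolateral membrane, was at 9.61, 9.67 and 13.4 under PL8177, 4.77, 5.25 and 4.39 in placebo and 7.60, 6.68 and 6.65 in sham rats. The 3 treatments did not overlap for Kcnk5, and PL8177 was highest, at a log2 fold change of 1.24 ± 0.24 against placebo (edgeR adjusted p = 0.414, DESeq2 0.00340). LOC100361087, Mapk13, a p38-type kinase, and Tesk2 were at 1.35, 1.03 and 1.04 and were also called by DESeq2. AABR07035790.2, AABR07031445.1 and Acbd4 completed the 10 smallest p values, at 2.57, 1.23 and 2.08.

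Lower with PL8177 than with placebo was Fkbp5, a chaperone induced by glucocorticoids, at 0.0937, 0.108 and 0.0652 against 0.272, 0.691 and 0.477 in placebo and 0.0774, 0.105 and 0.0285 in sham rats. This rests on 41, 116 and 18 UMIs in all, and its log2 fold changes were −2.17 for PL8177 and −2.53 for sham against placebo. Sgk1, also a glucocorticoid and mineralocorticoid target, was at 0.866, 3.18 and 1.57 under PL8177, 6.12, 5.11 and 5.12 in placebo and 3.39, 2.66 and 4.42 in sham rats. Each placebo rat was above all others, and the fold change for PL8177 against placebo was −1.48 (DESeq2 adjusted p = 0.0323). Slc8a1, the sodium and calcium exchanger, at −1.30, B3galt2, at −1.58, and Kitlg, the ligand of the receptor Kit, at −1.79, were called by DESeq2. Tmem171 was at −1.26, Lhfpl1 at −1.78 and Etfbkmt at −1.24, and the unnamed genes AABR07012583.2 and AABR07009824.1 at −2.32 and −2.27.

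For sham against placebo, the other genes of smallest p on the higher side were Il17rd, an inhibitor of FGF signalling, at 2.04, Tnfsf13 (APRIL), a ligand that sustains plasma cells, at 3.38, Armh1 at 2.14, the kinase Stk11 (LKB1) at 1.63, the kinesin Kif21b at 1.47, S100pbp at 1.68, and AABR07035790.2 and AABR07035791.1 at 3.25 and 3.38. Tnfsf13 was at 0.965, 0.105 and 0.628 in sham and 0.0605, 0 and 0.0642 in placebo rats, and edgeR called it when sham rat GR13 was left out (adjusted p = 0.0186). Gpx2, a glutathione peroxidase of the gut epithelium, was at 24.8, 63.6 and 70.9 in sham rats, 6.33, 17.8 and 8.43 in placebo and 17.5, 8.09 and 31.1 under PL8177. Its fold change of 2.36 for sham against placebo was called by DESeq2 (adjusted p = 0.00359).

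On the lower side were Pdk1, a brake on pyruvate oxidation, at −2.39, the glycogen branching enzyme Gbe1 at −1.75, Nedd9 at −1.53, Epc2 at −1.68, Rnls at −1.30, Cpped1 at −1.65, Lhfpl1 at −2.12 and AABR07002969.1 at −1.55. The chemokine gene Ccl20 was called by DESeq2 at −3.67 in edgeR's scale, with 6 UMIs in sham, 73 in placebo and 81 in PL8177 members. CYTB, a gene of the mitochondrial genome whose transcripts lie outside the nucleus, was at 2.23, 6.42 and 4.11 in sham rats, 98.7, 6.15 and 99.7 in placebo and 37.7, 50.8 and 75.2 under PL8177. Placebo rat GR23 stood with the sham rats, and edgeR called CYTB without that rat, at −4.47 between sham and placebo and 3.69 between PL8177 and sham (adjusted p = 0.0126 and 0.0429). All sham rats and that placebo rat lay far below the other DSS rats, and the part of CYTB in the folds given here was not tested.

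For PL8177 against sham, Etfbkmt, a methyltransferase of a mitochondrial electron carrier, had the smallest p, with 0.187, 0.186 and 0.261 under PL8177, 0.726, 0.816 and 0.828 in sham and 0.484, 0.484 and 0.541 in placebo rats. The 3 treatments did not overlap, and the log2 fold change was −1.92 ± 0.29 (edgeR adjusted p = 0.129, DESeq2 adjusted p = 0.00333). DESeq2 also called Armh1, at −2.0, and the class I gene RT1-CE1, at 1.87. Dusp1, at 1.74, Mxd1, at 0.94, and Rasal2, at 1.47, were among the higher genes, and Tnfsf13, at −2.47, and Prdx2, at −1.58, among the lower ones.

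**Figure D4:**
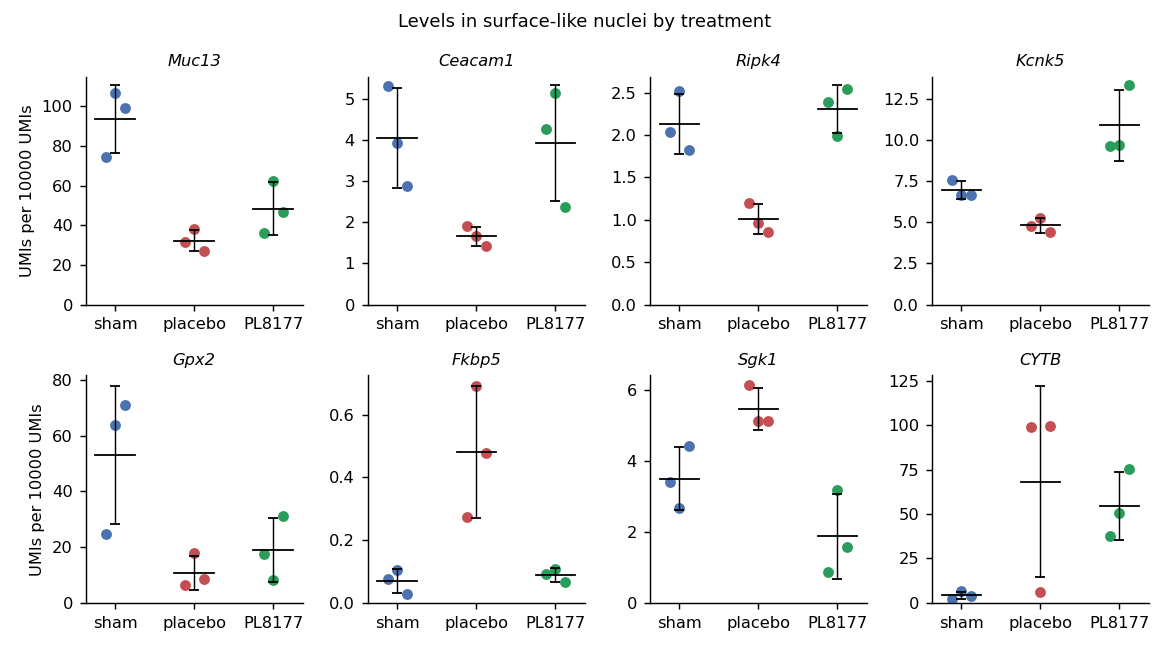
UMIs per 10000 UMIs in the surface-like nuclei of each rat (points) with the mean and SD of 3 rats (lines) for 8 genes by treatment. Muc13 is highest in sham, and Gpx2 has its highest mean in sham but overlaps with PL8177. Ceacam1 and Ripk4 are lowest in placebo, Kcnk5 highest in PL8177, Fkbp5 and Sgk1 highest in placebo, and CYTB is low in sham and in 1 placebo rat.

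Over all genes the median log2 fold change within members was −0.01, −0.01 and 0.02 in the 3 comparisons. The study listed enterocyte genes that were higher in both sham and PL8177 than in placebo, and 30 whose names could be read were taken. The list was thus chosen for this direction in these same nuclei, and it also holds the rule genes Aqp8, Clca4 and Krt20. It is no independent evidence of its direction, and the counts that follow only describe it. All 30 had a fitted fold above 0 in both comparisons with placebo, with medians of 0.74 and 0.79. At an unadjusted p below 0.05 stood 16 genes in each comparison, against 6.44% and 4.04% of all genes on the higher side, and edgeR called 0 after adjustment. DESeq2 called 5 and 4, against 0.308% and 0.09% of all genes called higher. Every rat lay above every placebo rat for 11 genes in sham and 15 in PL8177 rats, against 8.19% and 5.87% of all genes. Scnn1a, at 0.80 and 0.71, was a further example, with 4.28, 5.26 and 6.08 in sham rats, 2.96, 3.66 and 2.74 in placebo and 4.86, 4.74 and 5.02 under PL8177.

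Of 12 held-out colonocyte genes, 1 had an unadjusted p below 0.05 on the higher and 3 on the lower side between sham and placebo, and between PL8177 and placebo 2 and 1 did. Of 29 transport genes these counts were 7 and 2, and 4 and 4. Of all genes, 6.44% were higher and 6.08% lower at that p between sham and placebo. Between PL8177 and placebo 4.04% were higher and 3.42% lower. Counts such as 1 of 12 and 2 of 29 between sham and placebo lie near these shares, and nothing is read from them. Of 21 brush border genes, 17 had a fitted value above 0 for PL8177 against placebo (median 0.25) and 9 for sham against placebo (median −0.04). For the 22 BMP, hedgehog and EGF genes, 8 lay lower in every sham rat than in any placebo rat, where 9.18% of all genes did, and the median was −0.29. The 22 interferon and antigen presentation genes had a median of 0.22 in sham and of −0.16 in PL8177 rats, each against placebo, with 1 gene at an unadjusted p below 0.05 in each, and a median of −0.73 for PL8177 against sham with 0. Of 14 AP-1 genes, 5 and 4 were lower at that p.

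The last comparison asked whether a treatment change was the same in surface-like and other nuclei of the same rats, as the difference of the changes in a fit of both classes with the rat as a block. Of 7898 genes, edgeR called 4 (0.0506%) between sham and placebo and 2 (0.0253%) between PL8177 and placebo. Per rat, the log2 ratio of the level in members over that in other nuclei shows each. The make-up of the other nuclei differed by rat. Mixed nuclei were 307 of 420, 63 of 157 and 63 of 223 of them in sham rats. In placebo rats they were 480 of 762, 36 of 203 and 180 of 672. Under PL8177 they were 168 of 403, 445 of 755 and 65 of 204. The part of this make-up in the differences was not tested.

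Pik3r3, a regulatory subunit of phosphoinositide 3-kinase, had log2 ratios of 0.04, 0.61 and 0.34 in sham rats, 0.94, 1.09 and 1.54 in placebo and 0.71, 0.92 and 1.28 under PL8177. Sham rats were below all placebo and PL8177 rats, and the difference of changes for sham against placebo was −1.09 ± 0.20 (SE, adjusted p = 0.00327). Ano1, the calcium-activated chloride channel, had ratios of −0.92, −0.39 and −0.86 in sham and −0.29, 0.13 and 0.25 in placebo rats (difference −0.86, adjusted p = 0.0494). Id1, a target of BMP signals, had −0.46, −0.58 and −0.92 in sham and −0.06, 0.87 and 0.53 in placebo rats (difference −0.94, adjusted p = 0.0494). Vil1, villin of the brush border, had −0.28, 0.10 and −0.18 in sham rats, 0.41, 0.75 and 0.81 in placebo and 0.25, −0.10 and −0.12 under PL8177, with differences of −0.88 (adjusted p = 0.0494) for sham and −0.62 (adjusted p = 0.407) for PL8177 against placebo. For each of these 4 genes the placebo rats lay above the sham rats without overlap.

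Slc5a8, lower in members in every rat, had ratios of −0.39, −1.14 and −1.58 under PL8177, −1.97, −2.80 and −2.51 in placebo and −1.12, −2.27 and −0.41 in sham rats. Every PL8177 rat lay above every placebo rat, and the sham rats overlapped with both. The difference of changes for PL8177 against placebo was 1.33 ± 0.25 (adjusted p = 0.00378). Cemip, a hyaluronan-binding protein, was called for PL8177 against placebo at 1.65 ± 0.36 (adjusted p = 0.0471), with ratios of 1.71, 1.97 and 1.73 in PL8177 and 1.17, 3.08 and −1.09 in placebo rats. The placebo rats lay on both sides of the PL8177 rats for Cemip, and without placebo rat GR24 its difference fell to 0.53. Without that rat, 0 genes were called in either comparison, and without placebo rat GR22 there were 68 and 7. Ano1, Id1 and Vil1 each stayed called in 3 of the 9 fits that left out 1 rat, and Pik3r3, Slc5a8 and Cemip in 7. After thinning to 300 UMIs, none of these 6 genes was called.

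**Figure D5:**
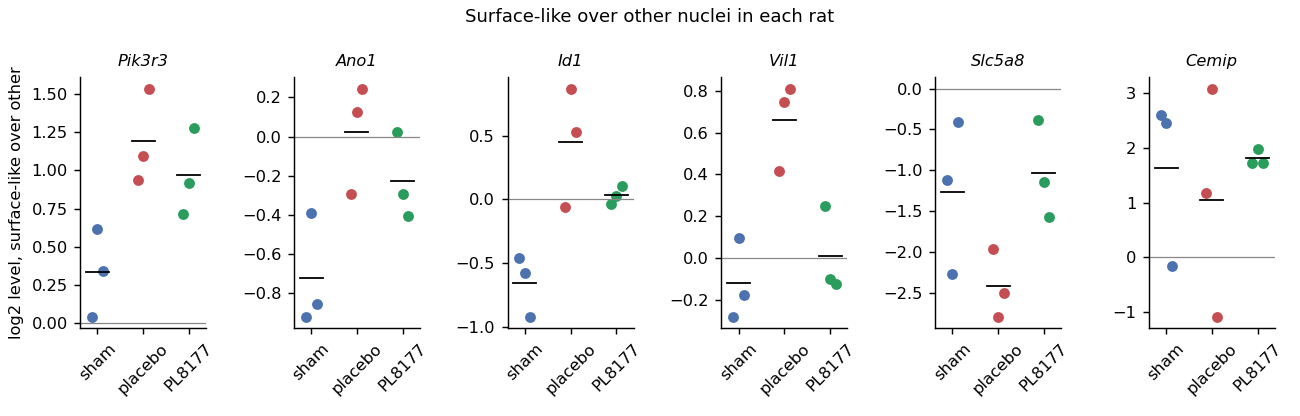
Log2 ratio of the level in surface-like over other nuclei in each rat (points) and the mean of 3 rats (bars) for the 6 genes whose treatment change differed between the classes, each on its own axis. Sham rats lie below placebo rats for Pik3r3, Ano1, Id1 and Vil1, PL8177 rats above placebo rats for Slc5a8, and placebo rats on both sides for Cemip.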

How the data were processed

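Single nuclei RNA sequencing (10x 3′ v3.1) was done on flash-frozen colon of 9 rats, 3 per treatment. The authors aligned reads to Rnor 6.0 with Cell Ranger 6.0.1, introns included, removed ambient RNA with CellBender, dropped genes seen in fewer than 3 cells, nuclei with fewer than 200 genes and nuclei with 5% or more mitochondrial reads, and named cell types with Seurat 4.0.3. The deposited counts are UMI counts per gene and nucleus in 3 enterocyte tables, and the T cell tables were not used here. The rat was read from the tag in each nucleus name. The labels do not list these tags, so values per rat rest on that reading, and p values measure the spread between these rats.

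The members and the gene lists were chosen with earlier results of these data known. UMIs were summed per rat and class and fitted with edgeR 4.0.16 (R 4.3.3; TMM, filterByExpr, quasi-likelihood test, Benjamini-Hochberg adjustment), with the rat as a block wherever both classes entered. DESeq2 1.42.0 was an alternative. Levels are UMIs per 10000 UMIs. Shares and single levels were compared by exact two-sided permutation tests over rats. Thinning drew 300 or 1000 UMIs per nucleus and left out shallower nuclei. Doublets were called by Scrublet in scanpy 1.11.5 and kept. The fits were tested on simulated data. Named genes were rule genes, called or lowest-p list members, the 15 genes per direction of largest fold among called genes with at least 200 UMIs and 1 direction in all rats, the 10 of smallest p per direction and treatment comparison, and Muc13, and a few genes that this rule names are not reported here. Intervals cover counting error only. Other filters, normalizations, thresholds and left-out rats were tried as alternatives.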

Additional observations from a re-analysis of the deposited data

Results flagged for a closer look

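For 6 genes the change between treatments differed between surface-like and other nuclei by edgeR's test of that difference. Between sham and placebo, the difference of the log2 changes was −1.09 for Pik3r3 (adjusted p = 0.00327), −0.86 for Ano1, −0.94 for Id1 and −0.88 for Vil1 (adjusted p = 0.0494 for each of the last 3). Between PL8177 and placebo it was 1.33 for Slc5a8 (adjusted p = 0.00378) and 1.65 for Cemip (adjusted p = 0.0471). None of the 6 was called without placebo rat GR24. The share of mixed nuclei among the other nuclei differed by rat, and its part in these differences was not tested.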

How the results depend on the processing

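The share differences kept their sign in 12 of 12 alternatives for sham against placebo (15.3 to 32.2 points) and PL8177 against placebo (16.6 to 21.9), but every rat lay above every placebo rat in only 8 of 12 for each. Both overlapped with no crypt condition at the depth as deposited (not when thinned to 300 UMIs), with at least 500 genes and within 1000 to 3000 UMIs. Sham also overlapped at 1000 UMIs and PL8177 also without Cftr. Leaving out 1 rat gave 19.9 to 33.0 and 13.8 to 25.8. PL8177 against sham turned to 2.16 points at 1000 UMIs, and without 1 rat ranged from −12.8 to 0.319, above 0 without sham rat GR13. Calls between surface-like and other nuclei numbered 3298 with no filter on low counts, 1258 thinned to 300 UMIs, 1283 within 1000 to 3000 UMIs, 848 against mixed nuclei (added after the data were seen), 1531 with no replicate block and 1789 to 2426 without 1 rat. Within surface-like nuclei, calls for sham against placebo, PL8177 against placebo and PL8177 against sham were 153, 53 and 69 with no filter and 41, 11 and 3 with DESeq2, and without 1 rat 0 to 1, 0 to 0 and 0 to 1. Calls of a differing change ranged from 0 to 68 and from 0 to 7 without 1 rat (33 and 6 without sham rat GR13). For PL8177 they were 1 with RLE normalization and 0 thinned to 300 UMIs. Muc13 differed by 54.5 to 70.8, 9.06 to 22.3 and −54.7 to −38.4 UMIs per 10000 without 1 rat. The cell cycle median turned to 0.26 within 1000 to 3000 UMIs, 0.14 against crypt-marker nuclei and 0.090 against mixed nuclei, and thinning turned the Cemip differences to −1.18 and −0.14. The cause of these changes was not tested. No paired analysis was possible because the rats of different treatments carry no shared number. Low depth limits the sham rats GR13 and GR15 most.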
